A study of Mus musculus with 6 samples.

Results

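The integrated stress response and the amino acid supply genes it governs were followed in mouse embryonic stem (ES) cells in which a human translation initiation factor was switched on. The gene set held 32 genes, listed by name with earlier results of these data known. Every probe set to which the platform annotation gave 1 symbol, that of a listed gene, was taken. These were 70 probe sets for 31 genes, of 45037 probe sets on the array (Affymetrix control probe sets left out). The 32nd gene, Gdf15, was not analysed here. The 31 genes were sorted by role into 10 regulators, 8 synthesis enzymes, 5 transporters, 5 tRNA synthetases and 3 other targets.

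All cells were of the ES line EBRTcH3 and carried the coding sequence of human WBSCR1 with a 3xFLAG tag at the ROSA26 locus, behind a promoter that tetracycline represses. WBSCR1, called Eif4h in the mouse, is a cofactor of the RNA helicase that opens the 5′ ends of messenger RNAs. Control cells grew with tetracycline (0 h without it), and induced cells had been without tetracycline for 24 h. Each of 3 clones, A1, A3 and A4, gave 1 control and 1 induced culture, hybridized to 1 array each, so every group held 3 arrays and every clone 2. The transgene and the removal of tetracycline cannot be told apart, and each clone is a separately picked line. ES cells were cultured in medium with serum, the cytokine LIF and non-essential amino acids. Every level below is a log2 signal of the robust multiarray average (RMA), and every change is a difference of such signals.

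The integrated stress response begins with kinases that phosphorylate the initiation factor eIF2 when amino acids are short, when unfolded protein collects in the endoplasmic reticulum, when haem is lacking or when viral RNA is present. Phosphorylated eIF2 lowers protein synthesis as a whole, while the messenger RNA of Atf4 is translated more. The transcription factor Atf4, usually paired with a C/EBP protein, then raises genes that make, import and charge amino acids, together with regulators such as Ddit3 (CHOP) and Trib3 that shape how the response ends. Atf4 is controlled largely at translation, which arrays of RNA do not measure.

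Atf4 and its C/EBP partners bind the C/EBP-ATF response element, usually written TGATGNAAT. Promoters from RefSeq (250 bases before to 50 after each gene's start) of assembly GRCm38.p6 were available for 28 of the 32 listed genes, and Wars, Slc7a5, Cars and Slc7a3 had no entry. TGATGNAAT, searched on both strands, was in the promoters of 3 of the 28 genes (10.7%), Gars and Nupr1 among them, and in 293 of all 27025 promoters (1.08%). The shorter TGATGNAA, searched after the first count was known and overlapping it wherever both matched, was in 10 of 28 (35.7%) and in 1219 of 27025 (4.51%). A choice of the matches to the shorter motif is printed below, with 11 bases on each side on the gene's own strand and capitals marking the match. They are shown because they lie in the promoter windows of 3 regulators, the glutathione enzyme Chac1, the asparagine enzyme Asns and the cystine carrier Slc7a11, whose array values follow. A match is a string of letters in a window and was not tested for binding.
Atf3 (chr1:191183425-191183454, minus strand): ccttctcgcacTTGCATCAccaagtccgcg
Trib3 (chr2:152344028-152344057, minus strand): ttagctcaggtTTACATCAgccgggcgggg
Nupr1 (chr7:126625562-126625591, minus strand): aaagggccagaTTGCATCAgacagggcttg
Chac1 (chr2:119351038-119351067, plus strand): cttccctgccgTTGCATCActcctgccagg
Asns (chr6:7693214-7693243, minus strand): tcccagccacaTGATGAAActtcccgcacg
Slc7a11 (chr3:50443661-50443690, minus strand): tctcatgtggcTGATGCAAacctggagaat
The match lay from base -23 to -16 in Asns and from -66 to -59 in Slc7a11, counted from the annotated start, and both read as TGATGNAA. In the other 4 it read as the reverse complement, from -110 to -103 in Atf3 and in Nupr1, and from 14 to 21, past the start, in Trib3. Slc7a11 held a second match from -47 to -40, on the other strand, and Gars, Pck2 and Vldlr, not printed, also held the shorter motif.

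Array medians were 5.11 to 5.19 log2. As means over the 6 arrays, the 10 ES cell markers had levels of 10.29 to 14.05, against 2.67 to 7.11 for 7 fibroblast or feeder markers. Of the latter, Col1a2 and Thy1 had a mean of 5 or more. The markers thus bore out the labelled cell type. For 63 probe sets, none of them for a listed gene, the induced array was at least 1 log2 above the control array in A1 and at least 1 log2 below it in A4, while the reverse held for 0. By that choice they averaged high in 1 array each of A1 and A4, at 7.89 in the induced A1 array and 7.78 in the control A4 array against 6.35 to 6.57 in the other 4, and without that pair of arrays 23 of the 31 genes, in place of 25, had a lower mean after induction. The signal of the 18S ribosomal RNA control ranged from 5.66 to 7.27. All but 1 of the 31 genes had a brightest probe set, the one that represents the gene below, at 5 log2 or more. The exception was Slc7a11, at 3.19 to 3.59, and probe sets under 5 are called dim.

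The study asked which mouse genes respond when this initiation factor is raised, and here the comparison concerns the stress response. No probe set passed the test, neither of the 70 nor of all 45037 (0% called, limma, Benjamini-Hochberg adjusted p under 0.05). Every member probe set had a limma adjusted p of 0.999942. With clone as a block the count was also 0 (0%), as it was by the methods' t-test. At an unadjusted p under 0.05 there were 0 of 70 member probe sets and 676 of all (1.5%) without the block, and 1 of 70 and 1539 of all (3.42%) with it. The 95% interval of the induction change lay within ±0.5 log2 for 25 of the 31 genes and within ±1 for all 31, from -0.62 at the lowest to 0.69 at the highest. With the block it lay within ±0.5 for all 31 genes, from -0.45 to 0.31.

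Small downward differences were more frequent among these genes than over the array. The induced mean was below the control mean for 25 of 31 genes (80.6%), against 48.7% of all 18193 genes with 1 probe set each and 44.3% of the 12222 genes at 5 log2 or more. The median change was -0.053 log2, in a range of -0.21 to 0.033, against 0.0028 for all genes. Mean levels over the 31 genes were 9.62, 9.57 and 9.61 in the control arrays of A1, A3 and A4, and 9.52, 9.60 and 9.48 in the induced arrays. The A1 and A4 means were thus lower after induction and the A3 mean higher. Of the 70 probe sets, 9 (12.9%) were lower in the induced array of every clone, against 11.9% of all, and 1, a dim probe set of Aldh18a1, was higher in every clone, against 9.9% of all. All 3 induced arrays lay below all 3 control arrays for 2 of the 70 probe sets (2.86%), against 3.42% of all. These were the Atf5 probe set and one of Aldh18a1 that is not its brightest. All 3 induced arrays lay above the control arrays for 0 of the 70, against 2.1% of all. The share that was lower in every clone was therefore near that of the array.

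**Figure D1:**
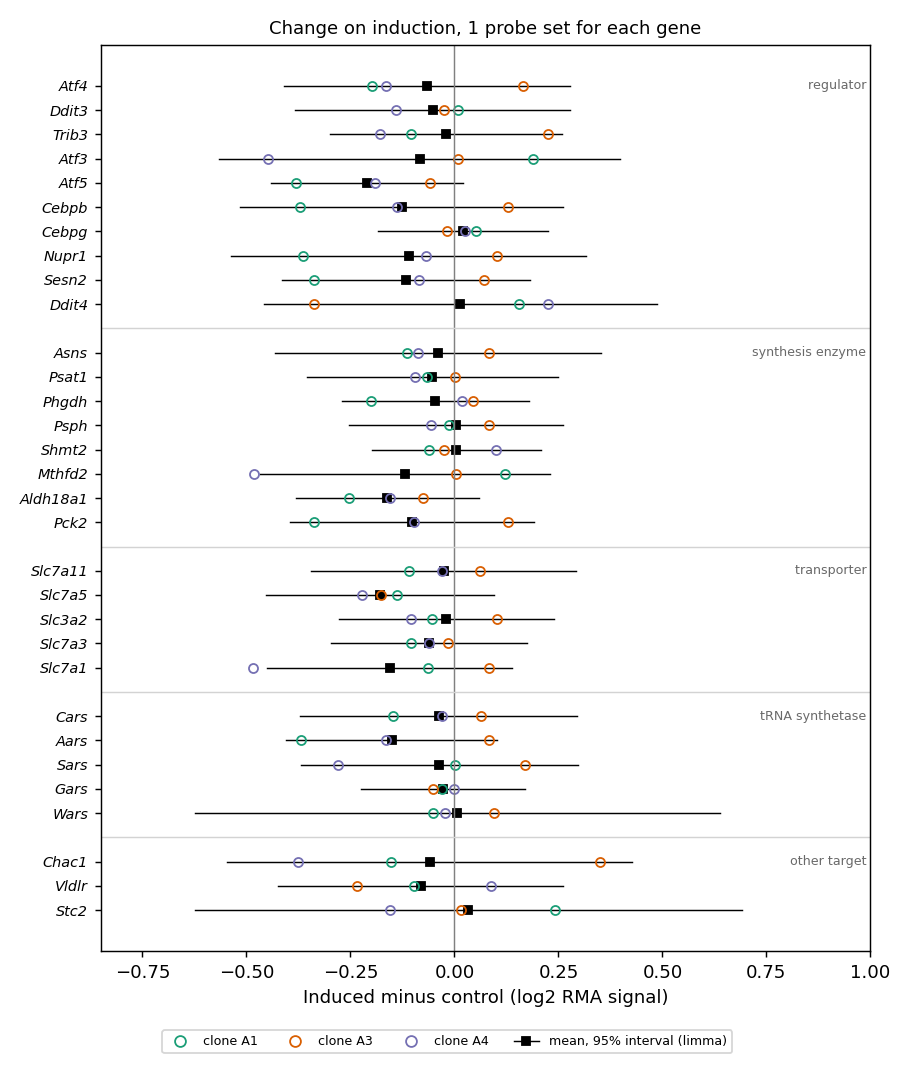
Change on induction (induced minus control, log2 RMA signal, x axis) for the brightest probe set of each of 31 genes, grouped by role, with 1 open circle for each clone and a black square with the 95% interval of limma for the mean. Every interval spans 0, 25 of the 31 squares lie left of it, and the orange circles of A3 lie right of 0 for 21 genes.

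Among the regulators, 8 of 10 had a lower mean after induction and 0 passed the test. Their median change was -0.15 in A1, 0.040 in A3 and -0.14 in A4. Atf4 itself, the transcription factor of the response, read 12.25, 11.71 and 12.08 in the control arrays of A1, A3 and A4, and 12.05, 11.88 and 11.91 after induction. The groups overlapped, with A1 and A4 lower and A3 higher after induction, and the difference was -0.067 ± 0.15 log2 (SE). The second Atf4 probe set gave the opposite picture in A1 and A3 (0.57 and -0.37, with -0.048 in A4), and the faintest, at 4.69 to 5.19, differed by 0.024. Ddit3, the pro-apoptotic factor CHOP, read 7.97, 7.61 and 7.88 in control arrays and 7.98, 7.58 and 7.74 after induction, a difference of -0.053 ± 0.14. Trib3, a pseudokinase that restrains Atf4, read 9.06, 8.70 and 8.96 against 8.95, 8.92 and 8.78, a difference of -0.020 ± 0.12 whose sign turned to 0.0040 with array medians subtracted. The second Trib3 probe set differed by 0.017. Control and induced arrays of Ddit3 and Trib3 overlapped.

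Atf5, a factor that like Atf4 is translated more when eIF2 is phosphorylated, had the smallest unadjusted p of the 31 genes (0.0696, limma). It read 8.28, 8.08 and 8.23 in control arrays and 7.90, 8.02 and 8.04 after induction. All 3 induced arrays were below all 3 control arrays, A1 by 0.38, A3 by 0.059 and A4 by 0.19, and the difference was -0.21 ± 0.099 log2 with an adjusted p of 0.999942. Sesn2, a leucine-binding protein that holds back mTORC1, read 9.35, 8.92 and 9.21 against 9.02, 8.99 and 9.12, a difference of -0.12 ± 0.13 in overlapping groups. The remaining regulators had differences of -0.13 for Cebpb, -0.11 for Nupr1, -0.083 for Atf3, 0.014 for the mTORC1 inhibitor Ddit4 and 0.020 for Cebpg, a partner of Atf4. Among the 10, Atf5 alone had groups that did not overlap on its brightest probe set, and none passed the test.

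The synthesis enzymes were lower in 6 of 8 genes, with median changes of -0.090 in A1, 0.025 in A3 and -0.091 in A4. Asns, which makes asparagine from aspartate and glutamine and is among the best known Atf4 targets, read 12.12, 12.47 and 12.18 in control arrays and 12.01, 12.55 and 12.09 after induction. The difference of -0.039 ± 0.17 log2 was smaller than the gap between A3 and the other clones. The other Asns probe set differed by 0.035, in the opposite direction. Aldh18a1, which starts proline synthesis from glutamate, read 9.93, 9.91 and 9.83 against 9.68, 9.84 and 9.67. Its induced arrays were lower in each clone, by 0.25, 0.075 and 0.15, with a difference of -0.16 ± 0.095 and an unadjusted p of 0.131 (limma). The groups overlapped, with the induced A3 array at 9.84 above the control A4 array at 9.83. Of its 5 probe sets 4 were lower, and the dim one was higher by 0.12. The 3 serine enzymes Phgdh, Psat1 and Psph differed by -0.046, -0.053 and 0.0039. A second Psat1 probe set differed by 0.081. The mitochondrial folate enzymes Shmt2 and Mthfd2 differed by 0.0041 and -0.12, and Mthfd2 owed its difference to A4, which was lower by 0.48 while A1 was higher by 0.12. Pck2, the mitochondrial enzyme that makes phosphoenolpyruvate, differed by -0.10.

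All 5 transporters had a lower mean after induction, with median changes of -0.10 in A1, 0.062 in A3 and -0.11 in A4, and 0 passed the test. Slc7a5, the light chain of the exchanger for leucine and other large neutral amino acids, read 10.62, 10.43 and 10.71 in control arrays and 10.49, 10.25 and 10.49 after induction. It was lower in each clone, by 0.14, 0.18 and 0.22, but the groups still overlapped through the A3 control array, and the difference was -0.18 ± 0.12 (unadjusted p 0.168, limma). Slc7a1, the carrier of arginine and lysine, read 10.23, 10.10 and 10.31 against 10.17, 10.18 and 9.83. The difference of -0.15 ± 0.13 came from A4, lower by 0.48, and without that clone it was 0.0097. Slc3a2, the heavy chain that Slc7a5 and Slc7a11 share, differed by -0.019, Slc7a3, another carrier of cationic amino acids, by -0.061, and dim Slc7a11 by -0.026.

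The tRNA synthetases, which join each amino acid to its tRNA, were lower in 4 of 5 genes, with median changes of -0.052 in A1, 0.084 in A3 and -0.030 in A4. Aars, the alanine enzyme, read 11.89, 11.62 and 11.82 in control arrays and 11.52, 11.71 and 11.65 after induction. A1 and A4 were lower by 0.37 and 0.17 and A3 was higher by 0.084, giving -0.15 ± 0.11 in overlapping groups (unadjusted p 0.207, limma). Cars, Sars and Gars, for cysteine, serine and glycine, differed by -0.038, -0.036 and -0.028. Wars, for tryptophan, differed by 0.0067 ± 0.27, an error that takes in the gap between clones described below.

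Among the other targets, Chac1, which degrades glutathione, differed by -0.060, the lipoprotein receptor Vldlr by -0.081 and the secreted glycoprotein Stc2 by 0.033. All 6 probe sets of Vldlr were lower after induction, from -0.41 to -0.032, but 5 of the 6 were dim. Its dim probe set at -0.41 read 4.93, 5.45 and 4.67 in control arrays and 4.29, 5.01 and 4.51 after induction. It was the member probe set under an unadjusted 0.05 with the block (p 0.00723, limma), and its adjusted p there was 0.999861.

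The clones did not move alike. Of the 31 genes, 24 were lower after induction in A1, 26 in A4 and 10 in A3, and the median changes were -0.10, -0.097 and 0.062 log2. Over all 18193 genes the medians were -0.022 in A1, 0.0045 in A4 and 0.019 in A3. For the 12222 genes at 5 log2 or more they were -0.0055 in A1, 0.025 in A4 and 0.012 in A3. The median signal of the array, dim probe sets included, fell from 5.16 to 5.11 in A1 and from 5.18 to 5.13 in A4. It rose from 5.17 to 5.19 in A3. In A4 the array median thus fell while the median change of all genes was slightly above 0. With array medians subtracted, 23 of the 31 genes had a lower mean after induction. The part of the array medians in each clone's changes was not tested. The combination of lower in A1 and in A4 with higher in A3 was seen in 16 of 31 genes (51.6%), against 17% of all genes. These 16 were the regulators Atf4, Trib3, Cebpb, Nupr1 and Sesn2, the enzymes Asns, Psat1, Psph and Pck2, the transporters Slc3a2, Slc7a1 and Slc7a11, the synthetases Aars, Cars and Wars, and Chac1. Chac1, for example, was at 9.57, 8.80 and 9.53 in the control arrays of A1, A3 and A4 and 9.42, 9.15 and 9.16 after induction. The A3 control array was the lowest of the 6, and the induced array of A3 was level with that of A4. Since a clone had a single pair of arrays, the clones' changes were not tested against each other.

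The clones were also compared over both conditions. The F test over clones passed for 6 of 70 member probe sets (8.57%), against 5.54% of all, and these were all 4 probe sets of Wars and 2 of Stc2. A3 against the mean of A1 and A4 passed for 4 member probe sets lower in A3 (5.71%, against 5.68% of all) and 4 higher (5.71%, against 3.89% of all). A1 against A4 passed for 0 of 70, against 0.0178% of all. At an unadjusted p under 0.05 that last comparison held for 6 of 70 and for 1954 of all. The number of member probe sets that passed changed when 1 array was left out. Such a fit has fewer residual degrees of freedom, so a call lost here or below need not mean a smaller difference. The F test called 0 of them without the control A1, the induced A1 or the induced A3 array and 1 without the control A3 array, and the A3 comparison called 5 without the control A3 array and 4 without the induced A3 array, against 8 with all arrays.

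**Figure D2:**
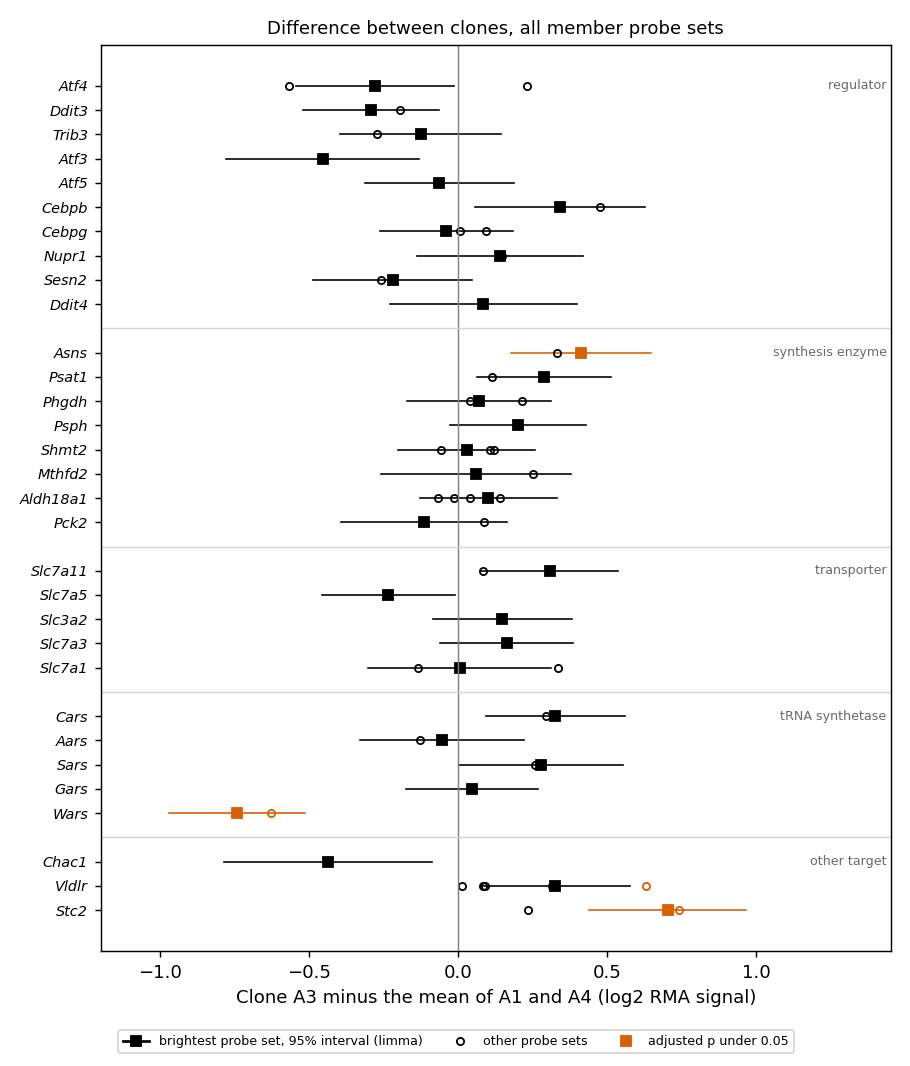
Clone A3 minus the mean of A1 and A4 (log2 RMA signal, x axis) for all 70 probe sets of 31 genes, grouped by role, with squares and 95% intervals of limma for the brightest probe set and circles for the others. Orange marks an adjusted p under 0.05, reached by Wars on the low side and by Asns, Stc2 and a dim probe set of Vldlr on the high side.

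Wars, the tryptophanyl-tRNA synthetase, was lower in A3. Its brightest probe set read 8.72 and 8.82 in the control and induced arrays of A3, against 9.58 and 9.53 in A1 and 9.48 and 9.46 in A4. A3 was 1.67-fold lower, at -0.74 ± 0.098 log2 (adjusted p of limma 0.00426). The other probe sets gave -0.75 ± 0.099, -0.63 ± 0.11 and -0.74 ± 0.11 with adjusted p of 0.00419, 0.0109 and 0.0055. Both A3 arrays lay below the other 4 arrays for each of the 4 probe sets, and A1 and A4 differed by 0.0023 to 0.092. The brightest probe set and the one at -0.75 passed whichever of the 6 arrays was left out. The one at -0.63 lost the call without the control A3 array (adjusted p of limma 0.0896), and the last without the induced A3 array (0.0621). The other synthetases of the set did not share it. Cars and Sars had positive differences of 0.32 (adjusted p 0.0914) and 0.28 (0.202), Gars 0.045 (0.826) and Aars -0.056 (0.826), all on the limma fit and none passing. Of the 14 other cytosolic synthetases measured, such as Eprs, Lars and Mars, 0 passed in either direction on any probe set by limma. Their median A3 difference was 0.13. At an unadjusted p under 0.05 there were 5 of their 29 probe sets, and that share was not counted over all probe sets. After adjustment 3.89% of all probe sets passed as higher in A3 and 5.68% as lower.

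**Figure D3:**
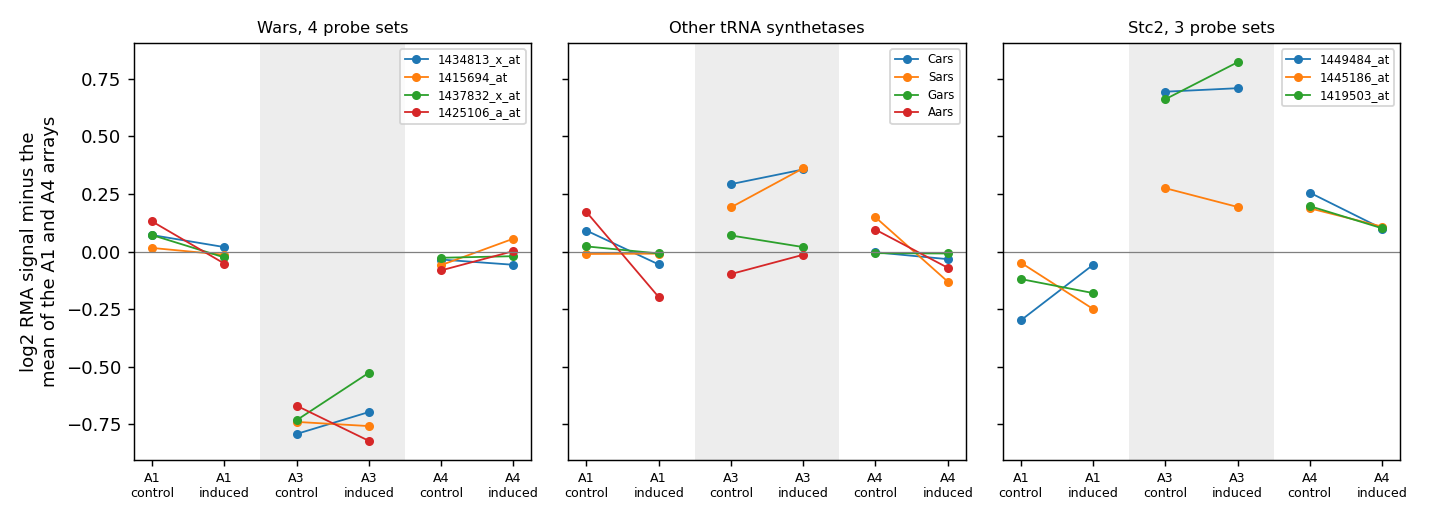
Log2 RMA signal of each array minus the mean of the A1 and A4 arrays (y axis) for the 4 probe sets of Wars, for the other 4 tRNA synthetases and for the 3 probe sets of Stc2, with lines joining the control and induced array of a clone and A3 shaded. Wars lies 0.53 to 0.82 below the line in A3 in both conditions, the other synthetases lie between -0.10 and 0.36 there, and Stc2 lies above it on each probe set.

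Stc2, the stress-induced stanniocalcin, was higher in A3. The brightest probe set read 7.94 and 7.96 in A3, against 6.95 and 7.19 in A1 and 7.50 and 7.35 in A4, a 1.63-fold difference of 0.70 ± 0.11 log2 (adjusted p of limma 0.00918). A second gave 0.74 ± 0.10 (adjusted p 0.00542) and the third 0.23 ± 0.098 (adjusted p 0.191). Both A3 arrays were above the other 4 on all 3 probe sets, but without the induced A3 array the adjusted p of limma was 0.0722 and 0.0669 for the 2 that passed, and without the control A3 array it was 0.059 for the brightest. Asns was higher in A3 by 0.41 ± 0.10 on its brightest probe set (adjusted p of limma 0.0432), with A3 at 12.47 and 12.55 against 12.01 to 12.18 in the other arrays. On the other Asns probe set the difference was 0.33 ± 0.096 and did not pass (adjusted p of limma 0.0759). The brightest lost its call whichever of the 6 arrays was left out, at differences of 0.32 to 0.50. A dim Vldlr probe set was higher by 0.63 ± 0.12 (adjusted p of limma 0.0176), with the brightest one at 0.32 ± 0.11 (0.11) and lost the call without either A3 array or the induced A1 array, with an adjusted p of up to 0.112. Neither gene passed the F test.

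Most of the regulators and most of the synthesis enzymes lay on opposite sides in A3, by small differences. The brightest probe set was lower in A3 for 7 of 10 regulators, with a median of -0.095, and higher for 7 of 8 synthesis enzymes and 4 of 5 transporters, with medians of 0.085 and 0.15. The median over all genes was 0.038, so most genes of the array were also above 0 in A3, and their exact share was not counted. Atf4 was at -0.28 ± 0.11 (adjusted p of limma 0.181), Ddit3 at -0.29 ± 0.098 (0.112) and Atf3 at -0.46 ± 0.14 (0.0881). Chac1, which is not among the regulators, was at -0.44 ± 0.15 (adjusted p of limma 0.12). The enzymes Asns, Psat1 and Psph were at 0.41, 0.29 and 0.20, of which Asns passed, and Pck2 was at -0.12. The regulators higher in A3 were Cebpb at 0.34 (adjusted p of limma 0.138), Nupr1 at 0.14 (0.537) and Ddit4 at 0.084 (0.762). Both A3 arrays lay above the other 4 for 24 of 70 probe sets (34.3%), of 14 genes, against 19.8% of all, and below them for 12 of 70 (17.1%), of 7 genes, against 16.6% of all. Apart from Wars, Stc2, Asns and the dim Vldlr probe set, none of these differences passed the test, and the contrast between roles was not tested.

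**Figure D4:**
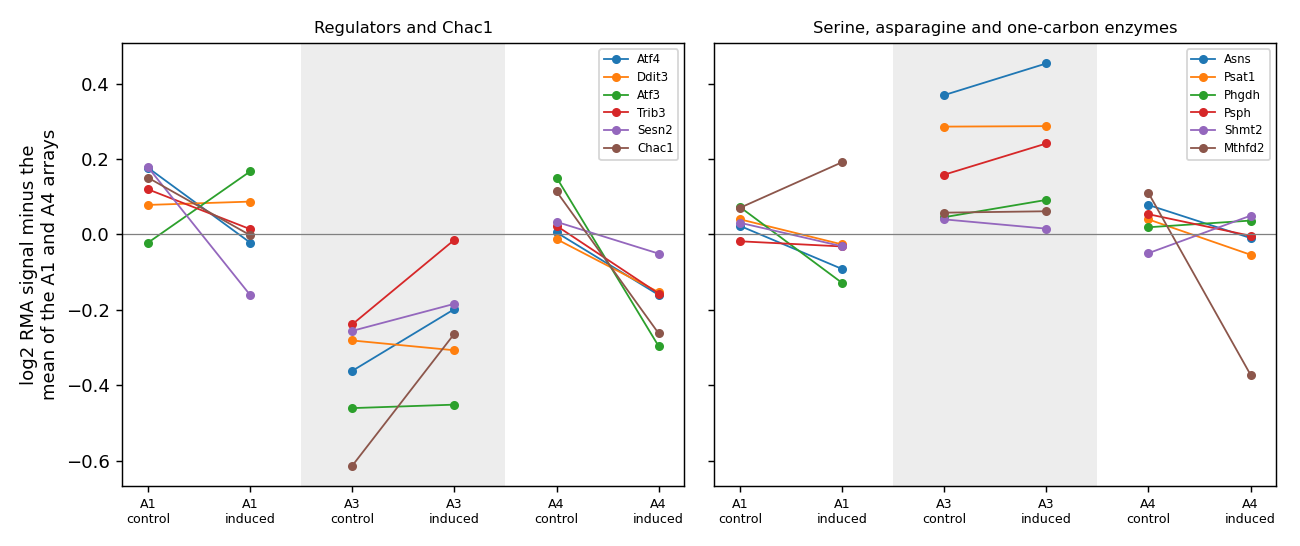
Log2 RMA signal of each array minus the mean of the A1 and A4 arrays (y axis) for 5 of the 7 regulators lower in A3 with Chac1 and for 6 enzymes of asparagine, serine and one-carbon metabolism, with lines joining the control and induced array of a clone and A3 shaded. In A3 the 5 plotted regulators, picked from those lower there, and Chac1 lie below the line in both conditions. In the induced A4 array these genes also lie below the line, from -0.30 to -0.051. Trib3, at -0.16 there, is lower than in the induced A3 array, at -0.014. In A3 the 6 plotted enzymes lie above the line, with Asns highest at 0.37 and 0.45. Mthfd2, at 0.058 and 0.062, lies below its A1 values of 0.071 and 0.19. The 3 regulators higher in A3 and the enzyme Pck2, at -0.12, are not plotted.

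Some other measures also moved with A3. The 6 endoderm markers had array means of 4.92 to 4.98 in A3 and 5.20 to 5.47 in A1 and A4. On the brightest probe sets 3 of the 6 (Gata4, Gata6 and Sox7) passed as lower in A3. Their A3 means were 4.68, 4.87 and 4.92, under the dim level of 5. Sox17 was lower by 0.36 (adjusted p of limma 0.0718). Ttr was higher by 0.17 (adjusted p of limma 0.377) and Afp by 0.038 (0.857). Afp, which defines later endoderm, had a mean of 4.02 over the arrays. The ES cell markers had array means of 11.94 to 12.04 in A3 and 12.06 to 12.18 in the other clones. Their median A3 difference was -0.025, and Klf4 passed as lower in A3, by 0.51 (adjusted p of limma 0.0384). The 4 neural markers had array means of 5.85 to 6.12 in A3 and 5.90 to 6.10 in A1 and A4. On the brightest probe sets Map2 was lower in A3 by 0.54 (adjusted p of limma 0.0423) and Sox1 by 0.052 (0.84). Pax6 was higher by 0.41 (adjusted p of limma 0.0692) and Tubb3 by 0.28 (0.143). On any probe set 1 of the 4 genes passed as higher and 2 as lower. Over all probe sets 3.89% were called higher in A3 and 5.68% lower. The signal of the 3′ over the 5′ control probe set of Actb was 0.29 to 0.32 log2 in A3 and 0.40 to 0.45 in A1 and A4. For Gapdh it was -0.0073 and 0.078 in A3 and 0.054 to 0.10 in A1 and A4, so the clones overlapped. The part of any of these in the differences of Wars, Stc2 and Asns was not tested.

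Further genes of the pathway, taken from lists beside the 32, gave 0 calls on induction in 4 lists, with 0 of their 103 probe sets at an unadjusted p under 0.05 (limma). The eIF2 kinases, eIF2B subunits and their regulators were lower after induction in 6 of 13 measured genes, other synthetases in 10 of 14, other amino acid and one-carbon enzymes in 8 of 11 and other transporters in 6 of 8. Between clones, Impact, which holds back the amino acid sensing kinase Gcn2 (Eif2ak4), was higher in A3. It read 10.07 and 9.97 in A3 against 9.09 to 9.28 in the other arrays, at 0.82 ± 0.10 log2 (adjusted p of limma 0.00336). Eif2ak4 itself was at -0.48 (0.0548) and did not pass. Of the enzymes, Gldc of the glycine cleavage system was higher in A3 by 0.78 (adjusted p of limma 0.00438) and the alanine aminotransferase Gpt2 by 0.52 (0.0266). Of the transporters, Slc1a4 for alanine, serine and cysteine was higher by 0.75 (adjusted p of limma 0.00478) and the glycine carrier Slc6a9 by 0.51 (0.037), and the glutamine carrier Slc38a1 was lower by 0.75, at 9.08 and 9.20 in A3 against 9.60 to 10.11 (0.0126). Thus 5 of the 19 other enzymes and transporters passed on their brightest probe set, 4 higher and 1 lower in A3, where 3.89% of all probe sets were called higher and 5.68% lower. Impact and Gldc kept the call without any 1 of the 6 arrays. Slc1a4 lost it without the induced A3 array (adjusted p 0.0603), Slc38a1 without either A3 array, and Gpt2 and Slc6a9 without any 1 of 4 arrays.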

How the data were processed

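Gene expression was measured in 3 ES cell clones, each with tetracycline and after 24 h without it, on 6 Affymetrix whole-genome mouse arrays. The deposited values are log2 signals that the authors obtained by RMA with affy (version not given in the sources used here). No further normalization was applied. Clones A1, A3 and A4 are replicates 1, 2 and 3, so clone pairs the arrays. Deviations from the group means correlated at r = 0.31, 0.67 and 0.29 within A1, A3 and A4, and at 0.35 and 0.37 between arrays of A1 and A4.

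The platform annotation gave 1 symbol for 34945 of 45037 probe sets, several for 932 and none for 9160, and only the first were named. The induction test was two-sided and used limma 3.58.1 (lmFit, eBayes; R 4.3.3), with no term but condition, as in the study's methods, whose t-test and a replicate block were alternatives. Clones were compared in a fit of condition and clone by an F test, A3 against the mean of A1 and A4, and A1 against A4. Adjustment was over all 45037 probe sets (Benjamini-Hochberg, 0.05). The tests were run on simulated data first. The brightest probe set, with the highest mean over the 6 arrays, stood for a gene. Statistics are given on induction for the 6 members with the smallest p and for Atf4, Ddit3, Asns and Trib3, and between clones for members called by the F test. Genes named beyond this rule were chosen after their values were seen. The members and lists were chosen with earlier results of these data known. The number of arrays limits the precision. Part of the promoter matches is not reported here. Columns outside the labels numbered 0. Figures were made in Python 3.11.15 with matplotlib 3.10.9.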

Additional observations from a re-analysis of the deposited data

Results flagged for a closer look

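The median change on induction over the 31 genes had opposite signs in different clones, with A1 at -0.10 log2 and A4 at -0.097 but A3 at 0.062. Each clone gave 1 pair of arrays, so the difference between clones was not tested. For 63 probe sets outside the gene set, picked for this pattern, the change was at least 1 log2 upward in A1 and at least 1 log2 downward in A4, and its part in the values above was not tested.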

How the results depend on the processing

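Induction called 0 member probe sets and 0 of all probe sets under each alternative run: the replicate block, a filter at 5 log2, array medians subtracted, quantile normalization again, cyclic loess, trended and robust eBayes, arrayWeights, 1 probe set for each symbol, the methods' t-test, an adjusted p of 0.1 and leaving out arrays or clones. Each clone had 1 array in each condition, so the replicate block could not change the induction differences themselves. With or without it, 25 of 31 genes were lower and the median over the 70 probe sets was -0.0405 log2. That count was 23 with array medians subtracted, 28 after quantile normalization, 30 after cyclic loess and 27 with arrayWeights, and 19 to 27 without arrays or clones. The median over probe sets was -0.108 to -0.016 in fits without 1 array or clone, with the lowest value without the induced A3 array. Trib3 turned to 0.004 with array medians subtracted. Without arrays or clones Atf4 ranged from -0.2176 to 0.0515, Ddit3 from -0.1583 to 0.0388, Asns from -0.2073 to 0.0671 (0.0259 without the control A4 and induced A1 arrays together), Trib3 from -0.1425 to 0.0593 and Slc7a1 from -0.2744 to 0.0097. Between clones, the F test called 6 member probe sets, 2 with 1 probe set for each symbol, 3 without probe sets ending in _s_at, _x_at or _a_at, and 0 to 6 without 1 array. The A3 comparison called 8, then 4 with 1 probe set for each symbol, 4 without such endings, 13 at an adjusted p under 0.1 and 4 to 9 without 1 array. Fewer probe sets enter the first pair of settings. A fit without 1 array leaves its clone in a single condition, which mixes induction with clone, and it has fewer residual degrees of freedom. The clone fit and the block without the control A4 and induced A1 arrays together were not run, since no residual degrees of freedom remained for the clone fit.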
